A study of Mus musculus with 12 samples.

Results

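The genes of the Polycomb repressive complexes were examined for H4K8ac, acetylation of lysine 8 of histone H4, a mark found at active promoters and enhancers. The 10 genes were Ezh1, Ezh2, Eed, Suz12 and Jarid2 of Polycomb repressive complex PRC2, and Bmi1, Ring1, Rnf2, Cbx2 and Cbx7 of the complex PRC1. A peak was taken for a gene where its gene name in the deposited annotation was that of the gene, and all 10 were found, of 23433 genes that were assigned a peak in any list. ChIP-seq, the sequencing of DNA recovered with an antibody to the mark, had been run on oligodendrocyte progenitor cells (OPCs), the dividing glia that form myelinating oligodendrocytes. The cells were sorted from mouse forebrain at postnatal day 5 (neonatal, 3 libraries) and at postnatal day 60 (adult, 3 libraries). All mice, at both ages, carried the PdgfrαH2BEGFP genotype, in which a nuclear green fluorescent protein marks cells that use Pdgfra, a gene that OPCs share with some perivascular fibroblasts. The labels call the libraries of each age biological replicates. How many animals went into each, and their sex, is not given in the sources used here. The 6 input libraries were not analysed here, and no RNA or protein was measured.

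PRC2 places methyl groups on histone H3 at the position known as H3K27. Ezh1 and Ezh2 are its alternative catalytic subunits, Eed binds the finished mark and stimulates the enzyme, Suz12 holds the core together, and Jarid2 is an accessory subunit that helps bring the complex to chromatin. PRC1 binds that mark through chromobox proteins such as Cbx2 and Cbx7 and attaches ubiquitin to histone H2A through Ring1 or Rnf2, the alternative catalytic subunits, paired with a partner such as Bmi1. Together the complexes keep developmental genes silent, and in the oligodendrocyte lineage PRC2 is known for its part in fate choice and differentiation. The Polycomb genes are themselves transcribed genes with promoters that can carry acetylation, and that acetylation is what was compared here between the ages.

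The promoters are shown first because where the peaks lay around the start site differed among these genes. RefSeq (GRCm38.p6) gave 10 promoter windows for 9 of the genes, with Jarid2 holding a pair, each running from 250 bases before the start site to 50 after it. The 4 windows below are those to which the peak positions refer most. They are the Ezh1 window, which no neonatal peak touched, the Suz12 and Rnf2 windows, whose start base lay under no peak in any library, and the Ring1 window, which was fully covered in 5 of 6 libraries. Each is written 5′ to 3′ on the strand of the gene, in lower case with every CG in capitals.
Ezh1, chr11:101226414-101226713, minus strand: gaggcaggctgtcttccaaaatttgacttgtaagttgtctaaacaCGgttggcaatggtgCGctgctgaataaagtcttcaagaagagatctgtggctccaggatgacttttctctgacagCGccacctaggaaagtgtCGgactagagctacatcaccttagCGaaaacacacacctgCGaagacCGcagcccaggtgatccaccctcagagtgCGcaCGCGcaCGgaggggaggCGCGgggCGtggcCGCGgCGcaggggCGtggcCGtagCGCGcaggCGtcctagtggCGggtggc
Suz12, chr11:79992856-79993155, plus strand: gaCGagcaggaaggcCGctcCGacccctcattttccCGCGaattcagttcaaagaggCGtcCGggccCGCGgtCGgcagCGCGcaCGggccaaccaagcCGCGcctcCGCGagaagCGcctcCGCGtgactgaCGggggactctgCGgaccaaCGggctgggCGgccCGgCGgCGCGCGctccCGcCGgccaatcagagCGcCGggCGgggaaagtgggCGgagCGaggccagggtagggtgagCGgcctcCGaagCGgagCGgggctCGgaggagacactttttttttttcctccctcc
Rnf2, chr1:151500942-151501241, minus strand: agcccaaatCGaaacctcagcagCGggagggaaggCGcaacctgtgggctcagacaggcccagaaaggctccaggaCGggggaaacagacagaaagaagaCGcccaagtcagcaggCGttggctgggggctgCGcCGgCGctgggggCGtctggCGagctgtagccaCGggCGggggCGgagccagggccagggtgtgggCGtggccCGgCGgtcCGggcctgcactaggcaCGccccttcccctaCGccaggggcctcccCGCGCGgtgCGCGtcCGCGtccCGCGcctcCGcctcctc
Ring1, chr17:34024631-34024930, minus strand: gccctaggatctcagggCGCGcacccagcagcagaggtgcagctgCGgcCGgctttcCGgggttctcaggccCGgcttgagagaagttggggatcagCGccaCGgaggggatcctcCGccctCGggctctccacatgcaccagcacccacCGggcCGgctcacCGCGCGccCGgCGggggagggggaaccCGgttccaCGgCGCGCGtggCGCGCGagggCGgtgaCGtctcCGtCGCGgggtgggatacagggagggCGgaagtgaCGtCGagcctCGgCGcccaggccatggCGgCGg
The Suz12 window holds 41 CG and the Ring1 window 37, against a median of 7 over 32851 RefSeq windows of the same length, and these counts stand at the 96.5th and 94.4th percentile. Rnf2 holds 30 CG and Ezh1 23. Among the Polycomb windows the lowest count was 17, at Eed, at the 68.6th percentile. All 10 windows were thus CG-rich relative to the median window.

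Of the motifs searched, on both strands, the GC box GGGCGG was in 7 of the 10 Polycomb windows and in 35.7% of all windows. CCAAT was in 6 of 10 and in 37.4% of all windows. The E2F-type motif TTCCCGC was in the Suz12 window alone among the 10 and in 4.60% of all windows. The E-box CACGTG was in the Bmi1 window alone and in 7.15% of all windows, and TATAAA was in a Jarid2 window alone and in 13.6%. The ETS-type motif CCGGAAG was in 0 of the 10 and in 8.86% of all windows. GGGCGG and the reverse complement of TTCCCGC share letters and can overlap in the same stretch, and a match only says that the letters are present.

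The libraries differed in how much of the genome their peak lists held. The neonatal lists held 9097, 31189 and 7353 peaks (replicates 1, 2 and 3) and the adult lists 72278, 72661 and 77002. Neonatal replicate 2 stood apart from the other neonatal libraries, so the log2 differences at promoters that turn most on it are given with and without it. The lists give no read totals, so depth is unknown, and a missing peak means that no peak was called, not that the mark was absent. The sort was checked with marker genes. Of 8 OPC markers, 7 or 8 had a promoter peak in each library, with Pdgfra, Cspg4, Olig1, Olig2, Sox10 and Sox6 marked in all 6. Of 8 oligodendrocyte markers, 1 or 2 had a promoter peak in each neonatal library and 8 of 8 in each adult library, and their summed promoter peaks covered 0.435 to 3.08 kb in neonatal and 49.7 to 79.3 kb in adult libraries. Those of the OPC markers also covered more in adult libraries, 32.4 to 54.8 kb against 3.7 to 20.8 kb. For neuronal markers the ranges were 0 to 2.52 kb in neonatal and 3.13 to 6.83 kb in adult libraries. The ranges of astrocyte and of fibroblast markers overlapped between the ages. Of 8 microglial markers only Cx3cr1 had a promoter peak, in the 3 adult libraries, and of 8 endothelial markers only Pecam1 and Kdr, also in the 3 adult libraries. Neuronal markers with a promoter peak numbered 0, 6 and 1 of 8 in neonatal and 5, 4 and 4 in adult libraries, and astrocyte markers 3, 6 and 2 of 8 against 5, 3 and 6. Fibroblast markers numbered 0, 4 and 0 of 8 against 3, 3 and 2. The part that list length, depth and oligodendrocyte chromatin have in the differences below was not tested. In sorted bulk cells, more cells carrying the mark and more of the mark per cell cannot be told apart.

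All 10 Polycomb genes had a promoter peak in every adult library. A promoter peak is one that the authors' annotation places within 3000 bp of a transcription start site. In neonatal replicates 1, 2 and 3, 7, 10 and 8 of the 10 genes had one, a mean of 8.33 ± 1.53 (SD, n = 3) against 10 ± 0 in adults. Over all genes, 27.2%, 58.5% and 24.0% had a promoter peak in the neonatal libraries and 66.2%, 64.5% and 66.1% in the adult libraries. The genes without one were Eed, Cbx2 and Cbx7 in neonatal replicate 1, and Eed and Cbx2 in neonatal replicate 3. The other 7 genes, Ezh1, Ezh2, Suz12, Jarid2, Bmi1, Ring1 and Rnf2, had a promoter peak in all 6 libraries, as did 21.5% of the 18548 genes with a promoter peak in any library. None of the 10 was marked in 3 adult and 0 neonatal libraries, a pattern of 12.1% of genes, and none in the reverse way, a pattern of 0.264%.

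The length of promoter covered by peaks was greater in every adult library than in every neonatal library at all 10 genes, which was so for 60.1% of the 18548 genes. The reverse order was found for 0 of the 10 and for 0.399% of genes. Differences in length are given as log2 of the ratio adult over neonatal, after adding 100 bp to each length. Their median was 1.37 over the 10 genes and 1.78 over all genes. Among genes with a promoter peak in all 6 libraries the medians were 1.24 for the 7 Polycomb genes and 1.37 for all 3996. At each of the 10 genes the exact two-sided permutation test over libraries gave p = 0.1, the smallest that 3 against 3 libraries allow, and a Benjamini-Hochberg adjusted p of 0.165 over all genes tested. With this test 0 of 18548 genes reached an adjusted p of 0.05, and 0 had an unadjusted p under 0.05.

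**Figure D1:**
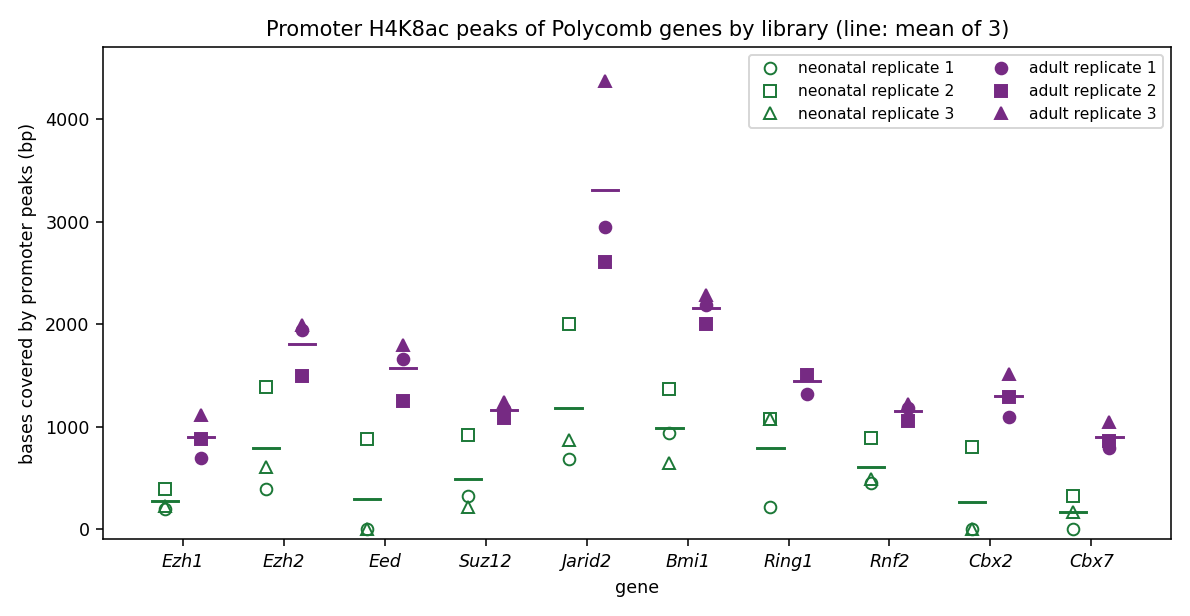
Length of promoter under H4K8ac peaks (bp, linear axis) for each of the 10 Polycomb genes in the 3 neonatal and 3 adult libraries, with each point a library and each short line the mean of an age. At every gene the 3 adult points sit above the 3 neonatal points, and Eed and Cbx2 have 2 neonatal libraries at 0.

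Among the PRC2 genes, Ezh1 (ENSMUSG00000006920.14), the catalytic subunit that predominates in non-dividing cells, had a single promoter region, chr11:101225693-101226804, around its start site. Its promoter peaks covered 200, 387 and 225 bp in the neonatal libraries and 690, 880 and 1112 bp in the adult libraries. The shortest adult value was thus above the longest neonatal value. The means were 271 ± 102 bp and 894 ± 211 bp (SD, n = 3 each), a log2 difference of 1.44 ± 0.28 (SE). The neonatal peaks lay inside the gene and touched 0 of the 300 bases of the promoter window shown above. In the adult libraries the peaks reached across the start site and covered 267, 300 and 300 of those bases.

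Ezh2 (ENSMUSG00000029687.16), the catalytic subunit of dividing cells, was covered over 395, 1389 and 603 bp in neonatal and 1946, 1490 and 1990 bp in adult libraries, at chr6:47593799-47595981. In RefSeq that region also overlaps F830010H11Rik. Neonatal replicate 2 came close to adult replicate 2, so the groups were separated by 101 bp only. The log2 difference was 1.24 ± 0.49 (SE), with means of 796 ± 524 and 1809 ± 277 bp (SD, n = 3 each). Without neonatal replicate 2 the log2 difference became 1.68. To ask whether the alternative catalytic subunits differed in their change, the log2 ratio of Ezh1 to Ezh2 length was taken within each library. It was -0.72, -1.61 and -1.11 in neonatal and -1.37, -0.70 and -0.79 in adult libraries. These values overlapped, with an adult minus neonatal difference of 0.20 (exact permutation test, p = 0.6, adjusted p = 0.8 over 3 pairs of related genes). No p under 0.1 was possible with 3 against 3 libraries, so no pair could have passed at 0.05. The pairs were picked after the values had been seen.

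Eed (ENSMUSG00000030619.10), the subunit that reads the H3K27 mark, had promoter peaks over 0, 881 and 0 bp in neonatal libraries and 1662, 1253 and 1798 bp in adult libraries. Neonatal replicate 2 was the only neonatal library with an Eed promoter peak by assigned gene. By position, neonatal replicate 3 also held a peak of 177 bp inside the Eed promoter region, chr7:89979915-89981780, which the annotation assigned to E230029C05Rik. The log2 difference was 2.95 ± 1.11 (SE) and became 4.05 without neonatal replicate 2. Without that library, Eed and Cbx2 joined the genes marked at the promoter in adult libraries alone, then 36.3% of all genes.

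Suz12 (ENSMUSG00000017548.15), the scaffold of the PRC2 core, carried its promoter peaks as a pair of regions on either side of the start site, chr11:79992464-79992946 and chr11:79993126-79993915. Together they covered 319, 922 and 213 bp in neonatal and 1168, 1081 and 1240 bp in adult libraries. The log2 difference was 1.30 ± 0.52 (SE) and became 1.80 without neonatal replicate 2. Neonatal replicate 1 had only the downstream peak and neonatal replicate 3 only the upstream peak, and the other 4 libraries had both. The gap between them was 340 bp in neonatal replicate 2 and 235, 245 and 179 bp in adult replicates 1, 2 and 3. The base at the start site fell in that gap in each of these libraries, and of the 300 bases of the Suz12 window shown above, 0, 2 and 0 were covered in neonatal and 74, 55 and 121 in adult libraries.

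Jarid2 (ENSMUSG00000038518.15), the accessory subunit, had the longest promoter coverage of the 10 genes in every adult library when all promoter-annotated peaks were summed. It was covered over 688, 1997 and 865 bp in neonatal and 2951, 2603 and 4368 bp in adult libraries. The log2 difference was 1.51 ± 0.48 (SE) and became 1.93 without neonatal replicate 2. The Jarid2 regions comprised chr13:44729532-44731249 at the start site, marked in all 6 libraries, and chr13:44732894-44734383 just downstream, marked in neonatal replicate 2 and the 3 adult libraries. A further promoter-annotated region, chr13:44839972-44840907, lay inside the gene 109198 to 110133 bp from that start site and was marked in adult replicates 1 and 3 only.

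**Figure D2:**
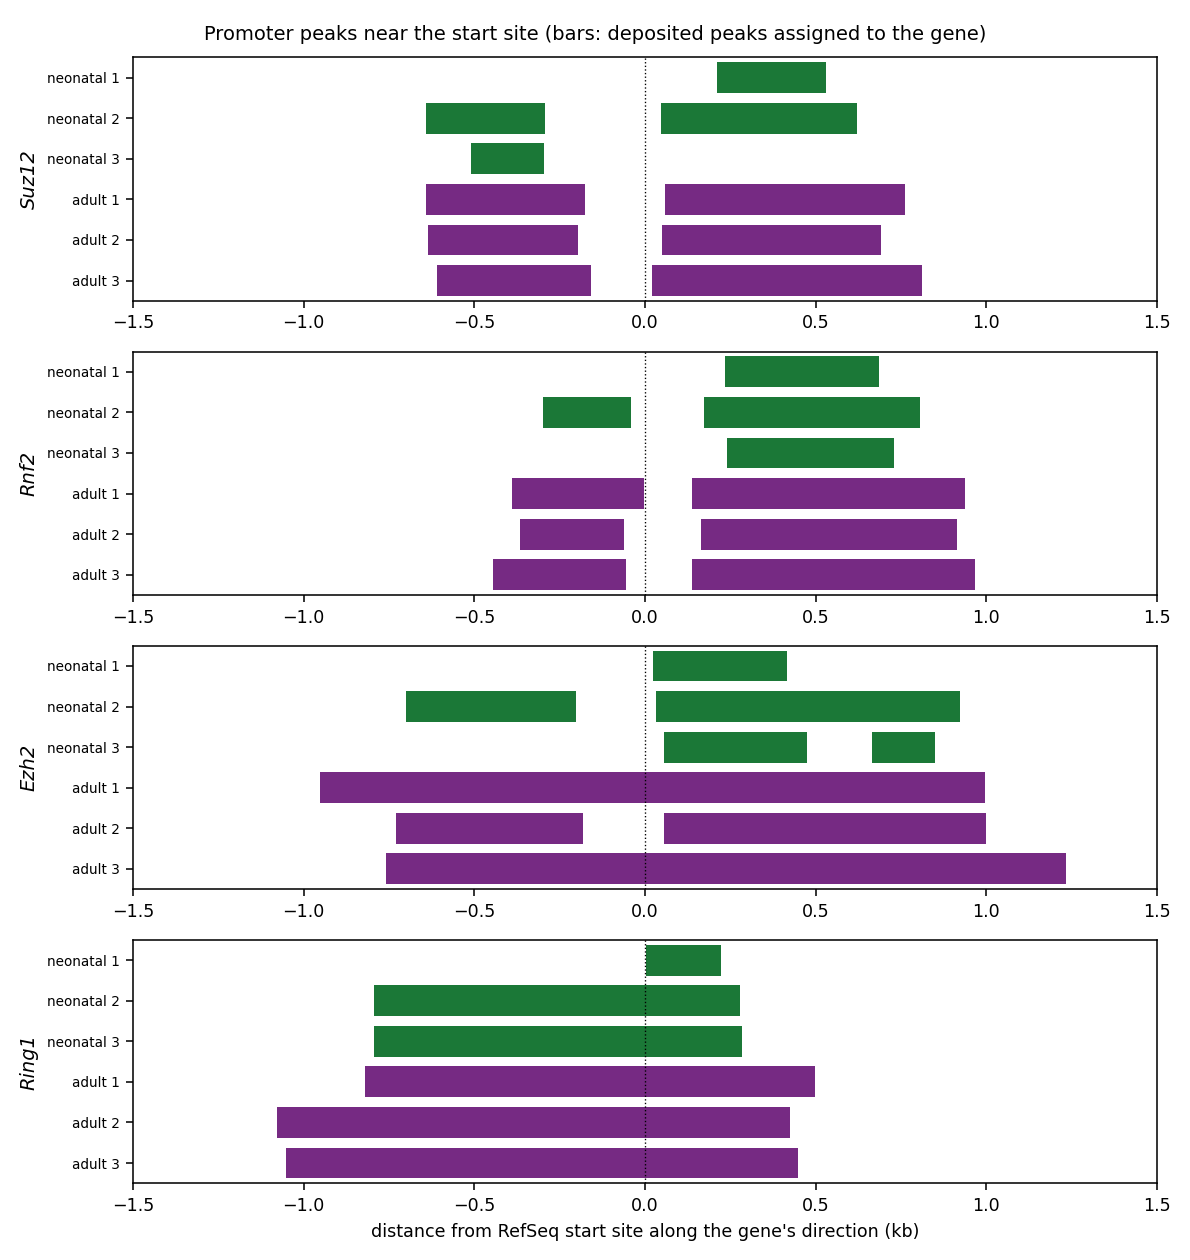
Peaks around the start sites of Suz12, Rnf2, Ezh2 and Ring1 in the 6 libraries, plotted by distance from the RefSeq start site (kb, positive in the direction of transcription), with each bar a peak and each track a library. Suz12 and Rnf2 show a gap between peaks at the start site in neonatal replicate 2 and every adult library. Ezh2 shows such a gap in neonatal replicate 2 and adult replicate 2. The Ring1 start site lies under a peak in 5 libraries.

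Of the PRC1 genes, Ring1 (ENSMUSG00000024325.8), a catalytic subunit, was covered over 219, 1072 and 1078 bp in neonatal and 1318, 1503 and 1499 bp in adult libraries, at chr17:34024183-34025759. Neonatal replicate 1 was far below the other neonatal libraries, which lay 240 bp or more below the lowest adult library. The log2 difference was 1.01 ± 0.63 (SE) and fell to 0.39 without neonatal replicate 1. By position within 3000 bp of a Ring1 start site, peaks that the annotation assigned to H2-Ke6 or Mir219a-1 were also counted. The lengths were then 219, 1769 and 1078 bp in neonatal and 2020, 2070 and 2716 bp in adult libraries. The log2 difference by position was 1.40. Of the 300 bases of the Ring1 window, 48 were covered in neonatal replicate 1 and 300 in each of the other 5 libraries. When the 10 genes were ordered within each library by the strength of their best promoter peak, Ring1 had the highest mean place over the 6 libraries (2.17, where 1 is the strongest), ranging from place 1 to place 5.

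The Ring1 region also took in the gene of a microRNA, Mir219a-1, whose hairpin lies upstream of Ring1 on the same strand, at chr17:34024983-34025092. The miR-219 family is known for promoting the differentiation of OPCs, so its mature sequences are shown from RefSeq (GRCm38.p6), 5′ to 3′, with the seed (bases 2 to 8) in capitals.
mmu-miR-219a-5p: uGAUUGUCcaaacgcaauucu
mmu-miR-219a-1-3p: aGAGUUGCgucuggacgucccg
The 110 bp of the hairpin were under a peak over 0 bp in neonatal replicate 1 and over all 110 bp in each of the other 5 libraries. Mir219c, on the opposite strand, lies within the same stretch, and peaks have no strand, so coverage there cannot be assigned to Ring1 or to either microRNA.

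Rnf2 (ENSMUSG00000026484.13), the other catalytic subunit, was covered over 451, 888 and 488 bp in neonatal and 1186, 1055 and 1217 bp in adult libraries, a log2 difference of 0.87 ± 0.27 (SE), the lowest of the 10. The adult values lay above all neonatal values by at least 167 bp. Its regions were chr1:151500026-151500853 inside the gene, marked in all 6 libraries, and chr1:151500994-151501437 upstream, marked in neonatal replicate 2 and the 3 adult libraries. As at Suz12, the start base lay between them, with gaps of 214 bp in neonatal replicate 2 and 140, 225 and 195 bp in adult replicates 1, 2 and 3. Of the Rnf2 window, 0, 210 and 0 bases were covered in neonatal and 248, 189 and 193 in adult libraries.

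The start base of a touched window was covered at 39.4%, 52.7% and 39.4% of all RefSeq windows in the neonatal libraries and at 70.8%, 64.3% and 74.6% in the adult libraries. For the Polycomb genes these counts were 0 of 4, 4 of 9 and 1 of 3 touched windows in neonatal libraries and 7, 6 and 7 of 10 in adult libraries. The windows not covered at the start base in any adult library were those of Suz12 and Rnf2 and the downstream one of Jarid2. A start base between promoter peaks was also seen at other genes in single libraries. At Ezh2 the gaps were 233 bp in neonatal replicate 2 and 237 bp in adult replicate 2. At Bmi1 they were 465 and 296 bp in neonatal replicates 1 and 2. At the upstream Jarid2 start site they were 570 and 403 bp in neonatal replicates 1 and 3.

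Bmi1 (ENSMUSG00000026739.13), the partner of the ring proteins and a factor known from the self-renewal of neural stem cells, was covered over 936, 1367 and 642 bp in neonatal and 2186, 1998 and 2284 bp in adult libraries. The lowest adult value was 631 bp above the highest neonatal value. The log2 difference was 1.11 ± 0.29 (SE), with means of 982 ± 365 and 2156 ± 145 bp (SD, n = 3 each). Its main region, chr2:18675827-18678205, also reaches into Commd3, the gene next to it.

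Both chromobox genes lacked a promoter peak in at least 1 neonatal library. Cbx2 (ENSMUSG00000025577.7) was covered over 0, 804 and 0 bp in neonatal and 1090, 1289 and 1512 bp in adult libraries, at chr11:119022613-119024137. In RefSeq that region also overlaps Gm35829. Neonatal replicate 2 was the only neonatal library with a peak, and the log2 difference of 2.73 ± 1.07 (SE) became 3.79 without it. Cbx7 (ENSMUSG00000053411.16) was covered over 0, 326 and 168 bp in neonatal and 792, 864 and 1049 bp in adult libraries. Its log2 difference was 2.14 ± 0.63 (SE). It fell to 1.56 without neonatal replicate 1 and became 2.6 without neonatal replicate 2. Within libraries, the log2 ratio of Cbx7 to Cbx2 length was 0, -1.09 and 1.42 in neonatal and -0.42, -0.53 and -0.49 in adult libraries. In neonatal replicate 1 both genes had 0 bp. In neonatal replicate 3 Cbx2 had 0 bp, so that ratio rests on the added 100 bp. The ratios did not separate by age (difference -0.59, exact permutation test, p = 0.7, adjusted p = 0.8), nor did Ring1 to Rnf2 (difference 0.14, exact permutation test, p = 0.8, adjusted p = 0.8).

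In the adult libraries the order of mean promoter length was Jarid2 (3307 ± 935 bp), Bmi1 (2156 ± 145), Ezh2 (1809 ± 277), Eed (1571 ± 284), Ring1 (1440 ± 106), Cbx2 (1297 ± 211), Suz12 (1163 ± 79.6), Rnf2 (1153 ± 86.0), Cbx7 (902 ± 133) and Ezh1 (894 ± 211; SD, n = 3 each). Jarid2 and Bmi1 were separated from their lower neighbours in every library, and so were Rnf2 and Cbx7, whose ranges just failed to meet. From Ezh2 down to Rnf2, and between Cbx7 and Ezh1, the ranges of neighbours overlapped. These lengths add up all promoter-annotated peaks of a gene, and the start sites listed per gene ranged from 1 at Suz12 to 10 at Jarid2. In the region at its start site alone, Jarid2 was covered over 1389, 1351 and 1469 bp in the adult libraries. That was below the 1849, 1998 and 2284 bp of the main Bmi1 region. The median Polycomb promoter peak was 319, 502 and 378 bp wide in the neonatal libraries and 696, 667 and 882 bp in the adult libraries, against 276, 382 and 269 bp and 469, 469 and 590 bp for all promoter peaks.

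Because the neonatal lists were shorter, the same counts were taken over the 7353 strongest peaks of each library by p-value, the length of the shortest list. At equal numbers of peaks, 5, 8 and 8 of the 10 genes had a promoter peak in the neonatal libraries and 10, 9 and 9 in the adult libraries, means of 7 ± 1.73 and 9.33 ± 0.58 (SD, n = 3). Over all genes the counts were 5521, 6331 and 5629 in neonatal and 6080, 5422 and 5591 in adult libraries, with no such separation. Ezh1, Jarid2, Bmi1 and Ring1 were in all 6 lists, as were 22.8% of the 9904 genes with a promoter peak among the strongest. None of the 10 was in the 3 adult lists alone or in the 3 neonatal lists alone, patterns of 4.12% and 4.59% of genes. Covered length was above every neonatal library in every adult library at 6 genes, Ezh1, Suz12, Bmi1, Ring1, Rnf2 and Cbx7, against 35.0% of genes, and the reverse held at 0 of the 10 and at 4.67% of genes. The median log2 difference was 1.39 over the 10 genes and 0.90 over all genes. The order of these medians was opposite to that in the full lists. Among genes in all 6 lists the order was that of the full lists, with medians of 1.17 for the 4 Polycomb genes and 1.20 for all 2257.

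The ages no longer separated at 4 genes, Ezh2, Eed, Jarid2 and Cbx2. Ezh2 was covered over 395, 891 and 603 bp in neonatal and 1946, 0 and 1990 bp in adult libraries, so adult replicate 2 fell out and the log2 difference was 0.10 in place of 1.24. Its best Ezh2 peak there stood at place 7365, just outside the 7353 kept. Cbx2 was covered over 0, 0 and 0 bp in neonatal and 1090, 1289 and 0 bp in adult libraries. Eed was covered over 0, 720 and 0 bp in neonatal and 1513, 516 and 1798 bp in adult libraries. Jarid2 also overlapped between the ages, with 688, 1421 and 865 bp in neonatal and 1389, 1351 and 2193 bp in adult libraries, and its log2 difference was 0.70 in place of 1.51.

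Peaks outside promoters were almost confined to the adult libraries. They numbered 0, 4 and 0 in neonatal and 17, 17 and 17 in adult libraries over the 10 genes, means of 1.33 ± 2.31 and 17 ± 0 (SD, n = 3), and covered 0, 0.914 and 0 kb against 9.10, 12.5 and 16.9 kb. Promoter peaks made up 100%, 81.8% and 100% of the peaks of these genes in neonatal and 51.4%, 54.1% and 51.4% in adult libraries. Over all genes the adult lists also held the lower shares, 43.9%, 43.1% and 40.4% against 85.2%, 67.5% and 88.8% in the neonatal lists. The peaks outside promoters belonged to 5 genes, Ezh1, Eed, Jarid2, Rnf2 and Cbx7. Ezh2, Suz12, Bmi1, Ring1 and Cbx2 had no peak outside promoters in any library. Over all genes, 12759 of 23433 had such a peak in at least 1 library, so the split of the 10 was near the background. Eed and Jarid2 had such peaks in 3 adult and 0 neonatal libraries, as did 33.2% of the 12759 genes with any peak of this kind. At Ezh1, Eed, Jarid2 and Cbx7 the covered length of every adult library was above that of every neonatal library, as for 51.8% of these genes. Peaks of this kind in 3 neonatal and 0 adult libraries were found at 0 of the 5 genes and at 0.0862% of genes. Within the equal-sized sets of 7353 peaks, Cbx7 alone of the 10 genes kept peaks outside its promoter, in adult replicates 2 and 3.

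Cbx7 had the most coverage outside promoters. Its intronic peaks covered 0, 753 and 0 bp in neonatal and 5097, 6616 and 7315 bp in adult libraries, a log2 difference of 4.96 ± 1.04 (SE; exact permutation test, p = 0.1, adjusted p = 0.193 over the 12759 genes). The neonatal signal came from replicate 2 alone, and the log2 difference became 5.99 without it. The widest region, chr15:79948365-79952915, lay 15719 to 20269 bp upstream of the RefSeq start site used here but within the span of the gene, and a peak of 4400 bp filled most of it in adult replicate 3. A region 3440 to 5827 bp downstream of that start site, chr15:79926819-79929206, was covered over 1877, 2242 and 2196 bp in the adult libraries and 419 bp in neonatal replicate 2. Another, chr15:79946266-79946796, was present in the 3 adult libraries and no neonatal library.

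Jarid2 carried peaks over 0, 0 and 0 bp in neonatal and 1686, 2131 and 5424 bp in adult libraries, all in its introns. Adult replicate 3 was the highest, with 9 such peaks against 5 in each of the other adult libraries. Most lay in a cluster from 18551 to 25266 bp downstream of the start site, in which chr13:44750663-44751780 and chr13:44752048-44753552 were marked in all 3 adult libraries.

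Ezh1 carried 0, 161 and 0 bp in neonatal and 1558, 2714 and 2235 bp in adult libraries. Nearly all of it was an intergenic region upstream of Ezh1, chr11:101229653-101232305, 3190 to 5842 bp before the start site, with a peak in the 3 adult libraries and in no neonatal library. The 161 bp of neonatal replicate 2 lay at chr11:101189463-101189697, which overlaps Cntnap1 in RefSeq rather than Ezh1. Eed carried 0, 0 and 0 bp in neonatal and 608, 856 and 1881 bp in adult libraries, in regions upstream of its start site that overlap no RefSeq gene, among them chr7:89984496-89985804 and chr7:89998319-89998736, each marked in all 3 adult libraries. Rnf2 had a peak of 147 bp in adult replicate 1 and of 212 bp in adult replicate 2, at different places in its introns, and none elsewhere (exact permutation test, p = 0.4, adjusted p = 0.57).

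**Figure D3:**
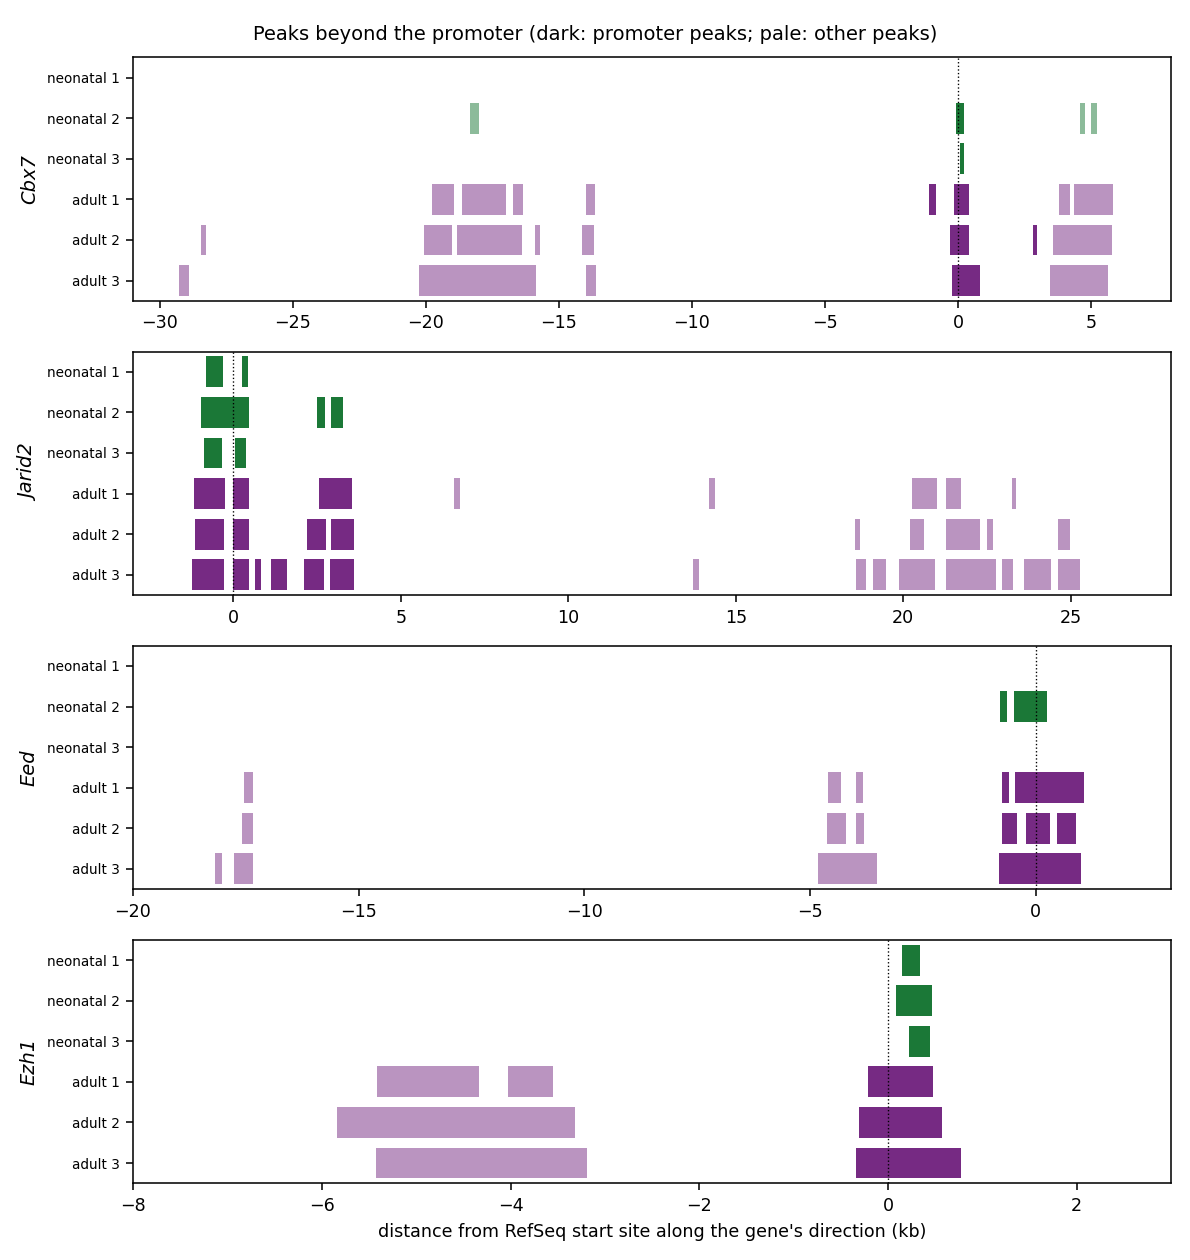
Peaks over a wider span around Cbx7, Jarid2, Eed and Ezh1 in the 6 libraries, plotted by distance from the RefSeq start site (kb, positive in the direction of transcription), with promoter peaks dark and other peaks light. All 3 adult tracks hold peaks outside promoters at each of the 4 genes, and within the span plotted the neonatal tracks hold such peaks in replicate 2 at Cbx7 only.

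When overlapping peaks of the 6 libraries were merged, the 10 genes had 19 promoter regions and 23 other regions. Of the promoter regions, 6 were present in all 6 libraries, or 31.6%, against 11.6% of all promoter regions, and 0 in 3 adult and 0 neonatal libraries, a pattern of 16.6% of all promoter regions. Of the other regions, 0 were present in all 6 libraries, against 0.507% of all such regions, and 6 in 3 adult and 0 neonatal libraries, or 26.1%, against 22.8% of all such regions, a share near the background. Regions found in adult libraries only, in any number, made up 87.0% of the 23 and 86.1% of all other regions. Regions found in neonatal libraries only numbered 0 of 19 at promoters and 0 of 23 elsewhere, against 5.56% and 5.66% of all regions of these kinds.

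The authors' deposited table of differential sites gives a log2 fold change and an adjusted p-value for each site. It lists only sites under an adjusted p of 0.05 and names no direction, and positive values were read as higher in adult cells because at least 85.0% of them overlapped each adult list and at most 27.8% each neonatal list. These 10 genes held 25 sites of the authors' deposited table, 14 at promoters and 11 elsewhere, and all 25 were positive. Since 99.4% of the 43888 sites in the authors' deposited table are positive, a positive direction was the background. The number of sites tested, 54838, was inferred from the ratio of raw to adjusted p-values, and of these 79.6% are listed as positive and 0.463% as negative in the authors' deposited table. All 10 genes had a positive promoter site in the authors' deposited table, as had 64.4% of the genes with a promoter peak. Of the 5 genes with other peaks, 4 had a positive site outside promoters in the authors' deposited table, against 56.6% of such genes, and the gene without one was Rnf2. Negative sites numbered 0 at these genes and were listed at the promoters of 0.728% of genes, and elsewhere at 0.792%, in the authors' deposited table.

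By the promoter site with the smallest p, Ezh1 rose most in the authors' deposited table, with a log2 fold change of 2.10 (adjusted p = 2.95e-07). Cbx7 followed at 1.94 (adjusted p = 2.12e-05) and Cbx2 at 1.90 (adjusted p = 0.000507) in the authors' deposited table. Suz12 (1.68), Rnf2 (1.64), Jarid2 (1.52), Eed (1.51), Bmi1 (1.45) and Ring1 (1.30) lay between in the authors' deposited table, with adjusted p from 0.000198 to 0.00469. Ezh2 rose least, by 1.05 (adjusted p = 0.042), at the 4th percentile of the 12069 genes with a promoter site in the authors' deposited table. The median over the 10 genes was 1.58 and over all such genes 1.77 in the authors' deposited table. That Ezh1 and Ezh2 differ from each other in this measure was not tested, since the table holds no values per library.

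Sites outside promoters had higher log2 fold changes, a median of 2.32 for the 11 Polycomb sites in the authors' deposited table against 1.53 for the 14 promoter sites. The same order held over the whole of the authors' deposited table, with a median of 2.87 at intron sites and 1.86 at promoter sites. The highest of the 25 was the Cbx7 intron site chr15:79946171-79946570, at 5.48 (adjusted p = 5.54e-06) in the authors' deposited table, at the 94th percentile of intron sites. It overlaps the Cbx7 region that had a peak in the 3 adult libraries only. At Eed, the upstream sites had values of 3.43 and 3.05 in the authors' deposited table, against 1.51 at the promoter. The site upstream of Ezh1 had 1.73 in the authors' deposited table (adjusted p = 0.000101), below the 2.10 of its promoter. Jarid2 had 5 intron sites, from 1.87 to 2.69, in the authors' deposited table.

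**Figure D4:**
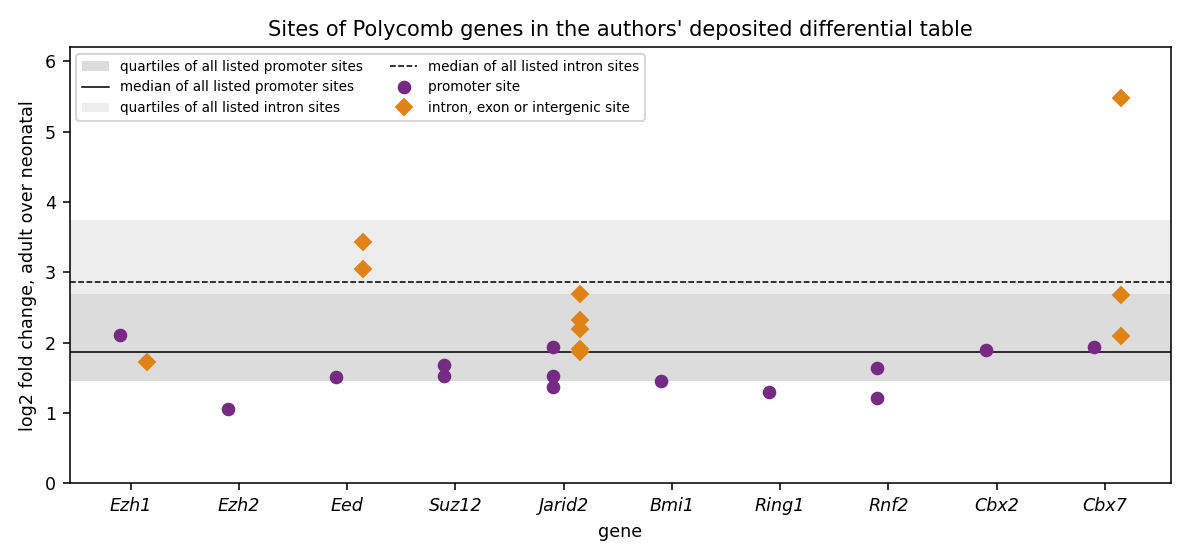
Log2 fold change (adult over neonatal) of the 25 sites of the authors' deposited table that fall to the Polycomb genes, by gene, with promoter and other sites in different colours and bands for the quartiles of all listed promoter and intron sites. All lie above 0, from 1.05 at the Ezh2 promoter to 5.48 at a Cbx7 intron site.

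The other genes of the pathway were taken from a list of 33 further Polycomb genes. Of these, 23, 30 and 21 had a promoter peak in the neonatal libraries and 32, 32 and 32 in the adult libraries, and Phf19, a PRC2 accessory gene, had none anywhere. Over all genes the shares were 27.2%, 58.5% and 24.0% in the neonatal and 66.2%, 64.5% and 66.1% in the adult libraries. Higher adult counts were thus the background for this list and for its subgroups below. Of the 32, 19 had a promoter peak in all 6 libraries and 26 had longer coverage in every adult library than in every neonatal library, beside 21.5% and 60.1% of all genes. Among 18 further PRC1 genes 14, 17 and 15 were marked in neonatal libraries and all 18 in adult libraries. Among 7 further PRC2 genes the neonatal counts were 4, 6 and 1 and the adult counts 6, 6 and 6. Of 6 genes of the PR-DUB complex, which removes ubiquitin from H2A, 3, 5 and 3 were marked in neonatal and 6 in each adult library. The H3K27 demethylase genes Kdm6a and Kdm6b were marked in every library.

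L3mbtl2 (0 bp in each neonatal library and 586, 595 and 956 bp in the adult libraries) and Asxl2 (0 bp and 953, 893 and 941 bp) were marked at the promoter in the 3 adult libraries only. These were 2 of the 32 genes, beside 12.1% of all genes with a promoter peak. Pcgf2, a relative of Bmi1, was covered over 895, 1895 and 731 bp in neonatal and 1305, 1291 and 1389 bp in adult libraries. Neonatal replicate 2 was thus above all adult libraries at Pcgf2, and within the equal-sized sets of 7353 peaks Pcgf2 was marked in the 3 neonatal lists and in no adult list. Promoter sites were listed for 30 of the 33 genes in the authors' deposited table, all positive, with a median of 1.54. Of all 12069 genes with a promoter site in the authors' deposited table, 11943 were positive, and the median was 1.77. The highest were Aebp2 (4.37, adjusted p = 8.03e-10) and Phc1 (4.30, adjusted p = 3.76e-10) in the authors' deposited table, both at sites inside the gene. The lowest were Yaf2 (0.97, adjusted p = 0.0244) and Pcgf6 (1.00, adjusted p = 0.033) in the authors' deposited table.

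Of 12 genes known as classical targets of Polycomb silencing, 10 had no promoter peak in any library, among them Hoxa9, Hoxd13, Gata4, Pax7 and Neurog1. Of the 23433 genes assigned a peak in any list, 18548 had a promoter peak. Genes with no peak at all are not in that number, so it is not a like share for the targets. Cdkn2a, which encodes inhibitors of the cell cycle, was covered over 0, 0 and 0 bp in neonatal and 419, 0 and 508 bp in adult libraries. Its neighbour Cdkn2b was covered over 0, 0 and 0 bp in neonatal and 299, 0 and 166 bp in adult libraries. Both were thus marked in adult replicates 1 and 3 and not in adult replicate 2. In the authors' deposited table Cdkn2a had a promoter site of 1.68 (adjusted p = 0.0116), and no site was listed for Cdkn2b.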

How the data were processed

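The submitters' processing notes name Trim Galore, Bowtie2 2.4.5, SAMtools, deepTools, MACS2, DiffBind, ChIPseeker and GRCm38; their settings, and the use of input, are not given in the sources used here. For every H4K8ac library the authors deposited a separate list of peaks, with a fold enrichment (a ratio), −log10 of the p-value and q-value, a score, and an annotation with gene name and class, per the file headers. Fold enrichments are the authors' own and were used only within a list. The deposited score equals −log10 of the q-value times 10, rounded down. The largest q-value lay between 0.0427 and 0.0489, and starts count from 0, so coordinates here count from 1. The authors' deposited table of 43888 sites gives log2 fold changes with raw and adjusted p-values. The normalization behind it is not given in the sources used here. Each site was assigned to the peak with the largest overlap (at least 1 bp) and inherited its gene and class.

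For each gene with a promoter peak, the covered length per library was compared on log2(bp + 100) with an exact two-sided permutation test over the 20 arrangements, adjusted by Benjamini-Hochberg over all such genes, in Python 3.11.15 (scipy 1.17.1, pandas 2.3.3, numpy 2.4.6). The procedure was tested on simulated data. Distances were measured from RefSeq start sites. The number of libraries and of called peaks sets the precision, since reads per library are unknown. Peaks within 3000 bp of a start site, stricter q-values (under 0.005), the strongest peaks, a window of 1 kb, other pseudocounts and leaving out each library were tried as alternatives. The genes and lists were chosen with earlier results of these data known. All 10 genes are named. Of the further Polycomb genes, those marked at 1 age only and the 2 highest and 2 lowest by the authors' log2 fold change are named, and Pcgf2, Phf19 and the examples among the classical targets were picked after their values had been seen. Input libraries were left out because no processed file of theirs was analysed here.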

Additional observations from a re-analysis of the deposited data

How the results depend on the processing

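The difference between the ages in the number of Polycomb genes with a promoter peak, 1.67 genes, was 1.67 at q-values under 0.005, 1.33 by position, 1.67 within 1 kb and 2.33 with the strongest peaks, and lay between 1 and 2.5 with each library left out. That of the strongest peaks lay between 1.33 and 2.83. With the 7353 strongest peaks of each library, by construction fewer peaks, the difference in other peaks fell from 15.67 to 1, genes with longer promoter coverage in every adult library from 10 to 6, and genes with longer coverage elsewhere from 4 to 0. Leaving out single libraries gave 15 to 17, 10 to 10 and 4 to 5 for these. The counts of 10 and 4 genes could not fall when a library was left out. Of 130 comparisons of single genes under the alternatives 130 kept their direction (log2 0.10 to 5.13). Most of these could not have reversed, because every adult library was above every neonatal library at all 10 promoters. That holds for leaving out a library, for other pseudocounts and for the replicate block. At an adjusted p under 0.005, 9 of 10 genes and 20 of 25 sites remained in the authors' deposited table, without Ezh2. Same-numbered libraries did not deviate together (correlations -0.05, 0.003 and 0.07), so the numbers do not pair them. With the replicate block, 10 promoters and 4 genes elsewhere were longer in the adult library of every pair. Any pairing must give this at genes where every adult library is above every neonatal library. Depth is unknown, which limits what a missing peak shows.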
